A study of Rattus norvegicus with 3 samples.

Results

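The genes described here encode the light-detecting cascade of rod and cone photoreceptors, the proteins that build and maintain their outer segments, and a few partners such as chaperones. They were taken as a list of 43 symbols, and all 43 were found among the 18425 genes of the expression table. RNA came from dissected retinas of wild-type Sprague Dawley rats, harvested at postnatal day 4 (P4) after an intravitreal injection at P1. The injection was 1 µl of saline, of citrate buffer at pH 4.5, or of a solution with 10 µg of streptozotocin (STZ), an alkylating glucosamine-nitrosourea. The STZ stock was made up in the citrate buffer, and what it was then diluted with is not given in the sources used here. There was 1 library per condition, and the sources used here do not give the number of animals or eyes behind each. The libraries held between 21977846 and 22031241 reads assigned to genes. For its intravitreal work the study describes STZ in the right eye and buffer in the left eye of an animal. Whether the STZ and buffer libraries came from such paired eyes is not given. With 1 library per condition, no difference below has a replicate check or a p-value, and treatment cannot be told apart from differences between animals, dissections or libraries.

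In a photoreceptor, light activates an opsin, the opsin activates the G protein transducin, and transducin releases the inhibition of a cGMP phosphodiesterase (PDE6). The fall in cGMP closes a cation channel in the outer segment membrane. Arrestin, opsin kinase, a GTPase-accelerating complex and calcium-dependent guanylate cyclase activators then end the response, and retinal dehydrogenases and transporters return the chromophore. Rods and cones use separate genes for many of these steps. In rodents most cones leave the cell cycle before birth, whereas rods are still being born in the first postnatal days and outer segments form later, so a P4 retina expresses this program only in part.

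Almost all of these genes were more abundant in the STZ library than in either control. FPKM, a level corrected for transcript length and library size, was higher in STZ than in both controls for 38 of the 40 genes with a mean of at least 10 reads over the 3 libraries, against 44.1% of the 14886 genes with that mean. It was lower than in both controls for 1 of the 40, the cone arrestin Arr3, against 35.2% of all such genes. The exception to both was Gnat2. Of the 3 genes with fewer reads, Rdh8 and Opn1mw were highest in STZ as well, and Gucy2f was equal in STZ and saline. Over the 40 genes the median log2 fold of STZ was 0.46 with buffer as the control and 0.56 with saline, where all genes with the same mean had medians of 0.03 and 0.01. The 2 comparisons share the STZ library. In bulk RNA, more cells of a type and more RNA per cell cannot be told apart.

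A gene was called when its fold, (FPKM + 1)/(FPKM + 1), was above 0.62 on the log2 scale or below -0.62, the thresholds of the study's methods. Against buffer, 11 of the 43 genes were called higher, where 2.25% of all genes were, and 0 were called lower, where 1.04% of all genes were. Against saline, 14 were called higher, where the share of all genes was 2.04%, and 0 lower, where it was 1.75%. The 9 genes called higher against both controls were Gnat1, Gngt1, Pde6a, Pde6b, Grk1, Guca1b, Pdc, Rdh12 and Fscn2, and the share of all genes that passed both was 1.39%. None was called lower against both, where 0.63% of all genes were. Between saline and buffer none of the 43 was called, where 1.00% of all genes were higher and 0.429% lower.

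**Figure D1:**
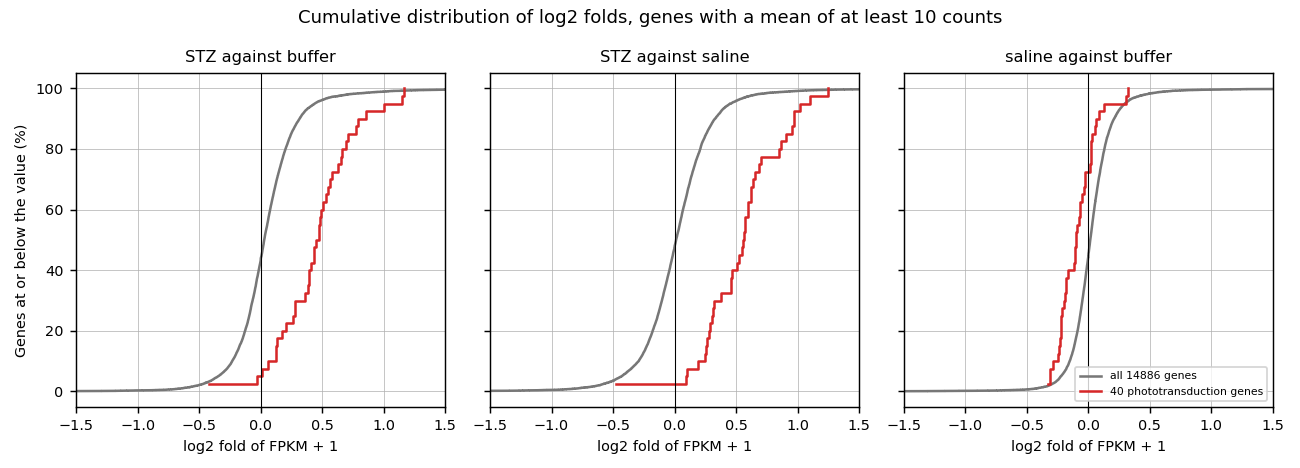
Cumulative percentage of genes (vertical axis) at or below each log2 fold of FPKM + 1 (horizontal axis), for the 40 phototransduction and outer segment genes in red and all 14886 genes in grey with a mean of at least 10 reads. The axis leaves out the tails of the grey curve. The red curve lies to the right of the grey one over most of both STZ panels, with medians of 0.46 and 0.56, and slightly to its left over most of saline against buffer, with a median of -0.10.

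Reads allow a finer reading than the fold rule. A read ratio compares the share of all reads that a gene took in each of a pair of libraries. It is given with an exact Clopper-Pearson 95% interval that covers counting error only and takes reads as independent, which PCR copies are not. The interval lay above 1 against both controls for 33 of the 40 genes, where 19.4% of all genes did, and below 1 against both for 0, where 14.8% did. Against buffer alone it lay above 1 for 34 genes, where 26.2% of all genes did, and below 1 for 0, where 18.8% did. Against saline alone it lay above 1 for 36, where 26.9% did, and below 1 for 1, Arr3, where 23.5% did. These intervals use the library totals and were not recomputed with other scaling, to which ratios near 1 are sensitive. With TMM scaling of the libraries the fold against buffer went from 1.04 to 1.01 for Rbp3 and from 0.977 to 0.95 for Gnat2. The controls were not equal for these genes either. FPKM was lower in saline than in buffer for 29 of the 40, against 44.5% of all genes. The interval of saline against buffer lay below 1 for 20 of the 40, against 12.0% of all genes, and above 1 for 2, Gnb3 and Rcvrn, against 15.9%. The median log2 fold of saline against buffer was -0.10.

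**Figure D2:**
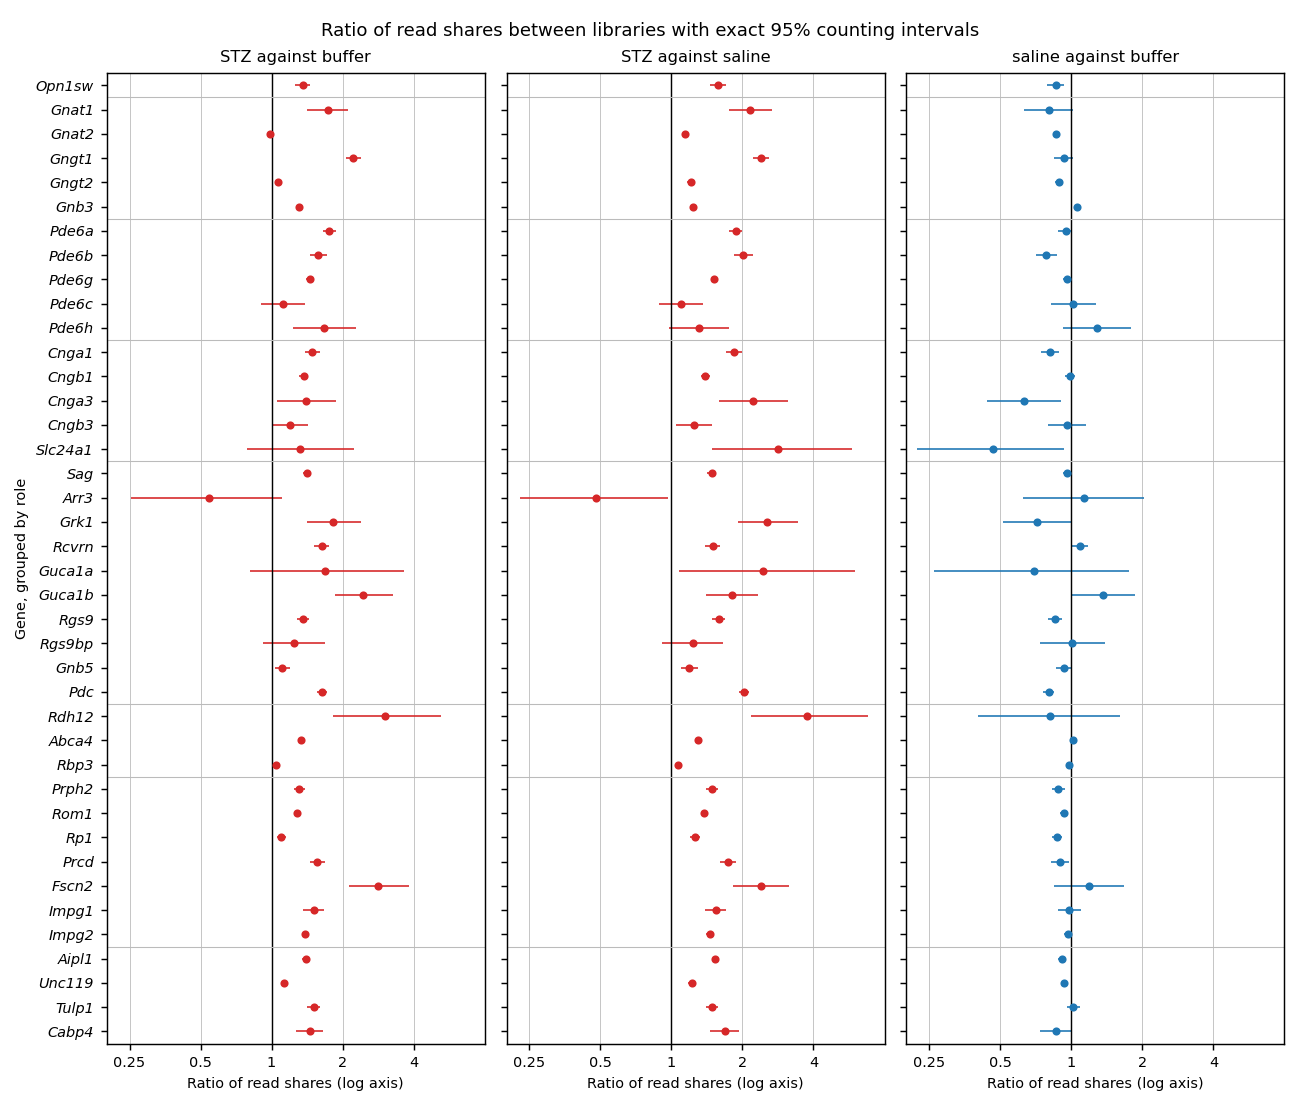
Ratio of read shares (horizontal, log axis) for the 40 genes with a mean of at least 10 reads, with exact 95% counting intervals as bars and 1 library per condition. Points for STZ lie above 1 for nearly every gene against buffer (left) and saline (middle), apart from Arr3 in both and Gnat2 against buffer, while saline against buffer (right) gives points mostly a little below 1.

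The most abundant of the genes per unit of length in all 3 libraries was Gngt2, the gamma subunit of cone transducin, whose FPKM was 844.65 in buffer, 752.16 in saline and 918.84 after STZ. In buffer it lay above 99.6% of all genes. Pde6g, the inhibitory subunit of the rod phosphodiesterase, came next with 399.06, 381.42 and 577.51, and Gnat2, the alpha subunit of cone transducin, was the third with 393.4, 337.17 and 384.45. Rod Gnat1, its counterpart, had an FPKM of only 3.8, 3.05 and 6.58. In buffer Gnb3, Unc119, Rbp3, Rom1, Aipl1, Sag and Gngt1 followed the leading 3 genes, with FPKM from 260.59 down to 153.77. In STZ, Gngt1 was the fifth with 341.84, while Rbp3 moved from sixth in both controls to ninth. At the other end were Gucy2f, a photoreceptor guanylate cyclase, with 3 reads in buffer and 6 in each of saline and STZ, and Opn1mw, the middle-wavelength cone opsin, with 0 reads in both controls and 1 in STZ. A count of 0 allows up to 3 reads, or 0.136 CPM (reads scaled to the library total) in buffer and 0.137 in saline.

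**Figure D3:**
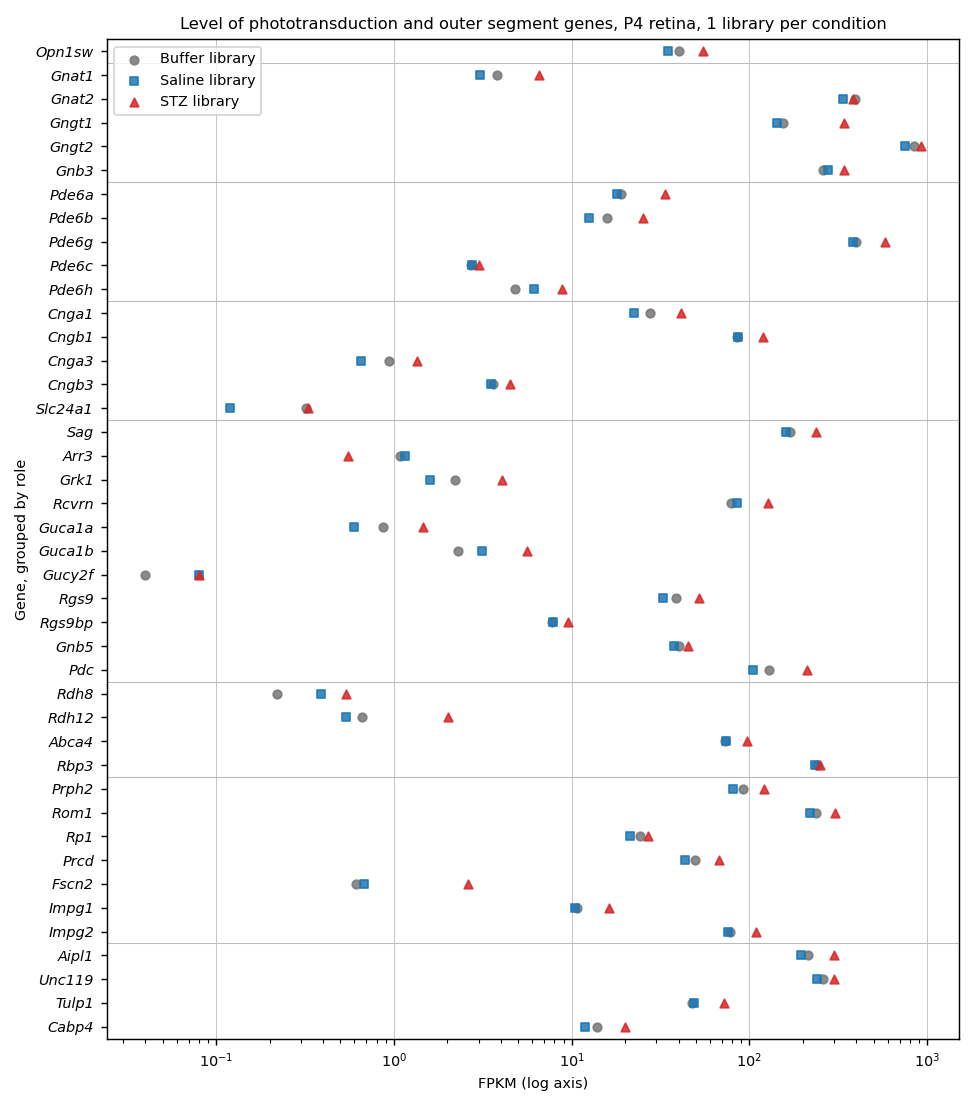
FPKM (log axis) of 42 of the genes in the buffer (grey circles), saline (blue squares) and STZ (red triangles) libraries, 1 library each, grouped by role. Opn1mw, at 0 in both controls, is not drawn. The triangle is the rightmost mark in nearly every row, and levels run from 0.04 for Gucy2f to 918.84 for Gngt2.

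A sequence feature that the choice of genes did not use is the motif TAATCC, the core recognized by the Otx and Crx class of homeodomain factors of photoreceptors. Both strands were searched, as TAATCC and GGATTA, in the 250 bases upstream of the annotated start in the RefSeq promoter table of GRCr8. The table held 32 of the 43 genes, and 12 of them, or 37.5%, carried the motif. Among all 27457 genes of that table the share was 6.95%, and among the 13845 that are also in the expression table it was 5.69%. The other 11 genes, Gnat1, Gnat2, Gngt2, Gnb3, Pde6c, Pde6g, Cngb3, Rcvrn, Grk1, Rdh8 and Rp1, were not searched. The 120 bases just upstream of the start are shown for 6 genes that carry the motif in this stretch, to show its setting. The fold of these 6 against buffer ranged from 1.04 for Rbp3 to 1.42 for Cabp4. Pde6a, Guca1a and Gucy2f also carry the motif in this stretch and are not shown. Their folds against buffer were 1.73, 1.32 and 1.04. Each sequence reads 5′ to 3′ on the strand of the gene, with the motif in capitals.
Opn1sw, chr4:58945826-58945945, minus strand: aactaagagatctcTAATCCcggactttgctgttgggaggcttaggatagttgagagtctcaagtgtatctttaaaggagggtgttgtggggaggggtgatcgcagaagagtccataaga
Cngb1, chr19:9732526-9732645, plus strand: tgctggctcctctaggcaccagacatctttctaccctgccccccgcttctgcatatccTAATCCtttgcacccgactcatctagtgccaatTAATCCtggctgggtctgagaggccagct
Abca4, chr2:212849365-212849484, plus strand: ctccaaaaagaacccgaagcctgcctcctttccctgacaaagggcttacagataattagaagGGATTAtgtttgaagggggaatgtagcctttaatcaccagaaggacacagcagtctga
Rbp3, chr16:9273667-9273786, plus strand: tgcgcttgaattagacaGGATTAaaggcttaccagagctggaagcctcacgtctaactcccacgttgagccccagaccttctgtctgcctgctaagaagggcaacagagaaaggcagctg
Aipl1, chr10:57163456-57163575, minus strand: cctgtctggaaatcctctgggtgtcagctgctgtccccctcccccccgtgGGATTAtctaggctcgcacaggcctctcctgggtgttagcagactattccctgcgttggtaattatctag
Cabp4, chr1:210862633-210862752, minus strand: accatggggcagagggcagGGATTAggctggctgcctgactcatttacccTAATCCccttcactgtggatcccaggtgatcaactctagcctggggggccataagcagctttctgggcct

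In these stretches the motif begins 106 bases before the start of Opn1sw, 103 before Rbp3, 70 before Aipl1 and 58 before Abca4. Cabp4 carries it 101 and 70 bases upstream in opposite orientations, and Cngb1 carries it 62 and 29 bases upstream in the same one. Of the 7 genes in the promoter table that were called higher against both controls, 2 carried the motif, Gngt1 and Pde6a. Of the other 25, 10 carried it. A match is a string of letters, and no binding was measured.

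Read counts are given from here on in the order buffer, saline and STZ, and folds in the order STZ against buffer and STZ against saline, unless stated. Visual pigments stand first in the cascade. Opn1sw, the short-wavelength opsin, had 1242 reads in buffer, 1067 in saline and 1687 in STZ. Its fold was 1.35 against buffer and 1.56 against saline, past the threshold only in the latter. That call was lost with TMM or median-of-ratios scaling of the libraries. The control libraries differed by a read ratio of 0.86 (0.791 to 0.934), and STZ lay above both. For Opn1mw no ratio can be given.

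Of the 5 transducin genes Gnat1 and Gngt1, the rod alpha and gamma subunits, were called higher in STZ, and the 3 cone genes were not. Gngt1, the gamma subunit of rod transducin, had 932 reads in buffer and 865 in saline, which differed by less than counting error, and 2076 in STZ. Its fold was 2.22 against buffer and 2.37 against saline, and its read ratio against buffer was 2.22 (2.06 to 2.4). Gnat1, the rod alpha subunit, had 162, 130 and 281 reads, with folds of 1.58 and 1.87 against buffer and saline. The cone subunits lay closer to the controls. Gnat2 had 11769 reads in buffer, 10152 in saline and 11599 in STZ, so that STZ lay between the controls, with a read ratio of 0.984 (0.959 to 1.01) against buffer and 1.14 (1.11 to 1.17) against saline. Gngt2 had 4574, 4050 and 4905 reads and folds of 1.09 and 1.22. Gnb3, the beta subunit of cone transducin, which ON bipolar cells also use, had 7754, 8246 and 10199 reads and folds of 1.31 and 1.23. Gnat2 overlaps Gnai3, and Gngt2 overlaps Abi3, in the GRCr8 annotation, and whether strand was used in counting is not given in the sources used here. The fold against buffer was 0.984 for Gnai3 and 0.966 for Abi3.

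The subunits of the rod phosphodiesterase were all higher in STZ. The catalytic subunit genes Pde6a and Pde6b had 1619, 1529 and 2861 reads and 883, 691 and 1399 reads, in the same order of libraries. Their folds against buffer were 1.73 and 1.55, and against saline 1.82 and 1.94. The fold of Pde6b against buffer was just past the threshold, and it no longer passed with TMM or median-of-ratios scaling of the libraries. Pde6g had 6129, 5842 and 8893 reads, and its folds of 1.45 and 1.51 were short of it. It overlaps Tspan10, which had 46, 76 and 68 reads. The cone genes had few reads. Pde6c, the cone catalytic subunit, had 166, 169 and 186 reads, and both of its read ratios in STZ had intervals that included 1, from 0.902 to 1.39 against buffer and from 0.887 to 1.36 against saline. Pde6h, the cone inhibitory subunit, had 68, 87 and 114 reads. It was called against buffer with a fold of 1.71 but not against saline, where the fold was 1.38 and the interval of the read ratio was 0.98 to 1.75. With CPM in place of FPKM the call against buffer was lost.

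Genes of the cGMP-gated channel, which carries the photoreceptor current, were higher in STZ too. With the exchanger, their median log2 folds were 0.28 and 0.46, beside 0.63 and 0.60 for the phosphodiesterase subunits. For the rod channel, Cnga1 had 1154, 935 and 1725 reads and folds of 1.47 against buffer and 1.8 against saline. Cngb1 had 3136, 3086 and 4295 reads, nearly equal in the controls, and folds of 1.39 and 1.38. For the cone channel, Cnga3 had 84, 53 and 118 reads, and Cngb3 had 247, 237 and 297, with folds from 1.2 to 1.42. Slc24a1, the rod sodium-calcium-potassium exchanger, was low, with 28, 13 and 37 reads. Its read ratio against buffer was 1.32 (0.786 to 2.24), so no difference was detectable at this depth, and against saline it was 2.84 (1.48 to 5.82). Cnga1 alone of these 5 genes was called, and only against saline.

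Among genes that end the response and feed calcium back on it, Grk1, Guca1b and Pdc were called higher against both controls. Grk1, the opsin kinase, had 92 reads in buffer, 66 in saline and 169 in STZ, and folds of 1.57 and 1.96. Guca1b, an activator of guanylate cyclase, had 73, 99 and 179 reads, and folds of 2.01 against buffer and 1.61 against saline. Guca1a, its relative, had 13, 9 and 22 reads and a read ratio of 1.69 (0.814 to 3.65) against buffer and 2.44 (1.08 to 6.02) against saline, where its log2 fold of 0.62 was just short of the threshold. Rcvrn encodes recoverin, the calcium sensor that inhibits the kinase. It had 1087, 1184 and 1775 reads and was called against buffer, with a fold of 1.62, but not against saline, with 1.48. Pdc, phosducin, which binds transducin beta-gamma, had 2966, 2380 and 4861 reads and folds of 1.63 and 2.02. Its controls differed by a read ratio of 0.803 (0.76 to 0.848), and STZ was still well above the higher of them.

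The rod and cone arrestins differed in direction, the latter on few reads. Sag, the rod arrestin, had 4744, 4548 and 6730 reads and folds of 1.41 and 1.47, and the interval of its read ratio against buffer was 1.36 to 1.47. Arr3, the cone arrestin, had 24 reads in buffer, 27 in saline and 13 in STZ. Its read ratio was 0.541 (0.253 to 1.11) against buffer and 0.48 (0.228 to 0.963) against saline, so that the interval just excluded 1 in the second comparison only. Neither fold, 0.745 and 0.718, passed the lower threshold. Arr3 overlaps P2ry4 in the annotation, which had 862, 962 and 784 reads, and with so few reads of its own the value of Arr3 is uncertain. In the complex that switches transducin off, Rgs9, the GTPase-accelerating protein, had 1854, 1582 and 2522 reads and folds of 1.35 and 1.57. Its anchor Rgs9bp had 82, 83 and 102 reads, with intervals that included 1 in all 3 comparisons. Its partner Gnb5, which many neurons use, had 1201, 1118 and 1337 reads and folds of only 1.12 and 1.2.

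Of the genes that handle retinoids, 1 was called and the most abundant was nearly level. Rdh12, a retinal dehydrogenase of the inner segment, had 21, 17 and 64 reads, and its folds were 1.81 and 1.95. The pseudocount of 1 holds these folds down, since its FPKM was 0.66 in buffer. Its read ratio was 3.04 (1.83 to 5.24) against buffer. Rdh8, the outer segment dehydrogenase, had 4, 8 and 11 reads, too few to resolve a difference. Abca4, the flippase that moves retinoids across disc membranes, had 11241 reads in buffer, 11461 in saline and 14953 in STZ, with folds of 1.32 and 1.3. Rbp3 encodes the retinoid-binding protein of the matrix between photoreceptors and pigment epithelium. It was the gene of the 43 with most reads in every library, 18634, 18189 and 19493, and its folds were 1.04 and 1.07.

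Genes of outer segment structure and of the surrounding matrix had a higher FPKM in STZ than in both controls in 7 of 7 cases. Of all genes with a mean of at least 10 reads, 44.1% did. The disc rim proteins Prph2 and Rom1 had 2284, 2012 and 2995 reads and 6854, 6372 and 8796 reads, with folds against buffer of 1.3 and 1.28. Fscn2, a photoreceptor fascin that bundles actin, had 64, 76 and 182 reads and folds of 2.24 and 2.15. Its deposited FPKM differed more than its reads, by 4.28 against a read ratio of 2.84 (2.12 to 3.84) in STZ against buffer, and it was called with CPM in place of FPKM too. Rp1, a microtubule-associated protein of the axoneme, had 3622, 3156 and 3995 reads and folds of 1.1 and 1.25. Prcd, a small disc protein, had 1177, 1054 and 1838 reads. Its FPKM differed less than its reads, and its folds were 0.45 against buffer and 0.62 against saline on the log2 scale, the latter only just past the threshold. With TMM or median-of-ratios scaling the call against saline was lost. Prcd overlaps Cygb, which had a fold of 1.09 against buffer. The matrix proteoglycans Impg1 and Impg2 had 621, 608 and 938 reads and 7069, 6814 and 9875 reads, with controls close together and folds from 1.39 to 1.49.

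The remaining genes serve folding, transport and the synapse. Aipl1, the chaperone of PDE6, had 6189, 5630 and 8661 reads and folds of 1.39 and 1.51. Unc119, which carries lipidated proteins such as transducin and is used beyond photoreceptors, had 6315, 5887 and 7173 reads and folds of 1.15 and 1.24. Tulp1, a photoreceptor trafficking protein, had 1888, 1924 and 2852 reads and folds of 1.49 and 1.47. Cabp4, a calcium-binding protein of the photoreceptor terminal, had 369, 318 and 536 reads and folds of 1.42 and 1.63. All of these genes were highest in STZ, and Cabp4 was called against saline only. Cabp4 overlaps Tmem134, which had 432, 468 and 380 reads, and also Gpr152 and Rpl35a-ps6.

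By cell class, as textbooks assign them, the median fold was highest for rod genes. For the 9 rod genes the median log2 fold was 0.56 with buffer as the control and 0.85 with saline, and 4 and 5 of them were called higher, where 2.25% and 2.04% of all genes were. Without the call of Pde6b against buffer, lost with TMM scaling, the former count is 3. Together they took 18787 reads in buffer, 17639 in saline and 28297 after STZ. The cone genes, of which 9 of 10 had a mean of at least 10 reads, had medians of 0.26 and 0.29, and 1 was called in each comparison, Pde6h against buffer and Opn1sw against saline. Their reads summed to 25928, 24088 and 29119. The genes used by rods and cones alike, 22 of 24 with that mean, had medians of 0.46 and 0.57. The difference between the classes was not tested.

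Rod and cone genes of like function can be compared by the ratio of a rod gene to its cone counterpart within a library, which no scaling of the library can move. It was taken for 7 pairs, and its change between libraries was given as an odds ratio with an exact conditional 95% interval for counting error. In STZ against buffer the ratio was above 1 for 6 of 7 pairs, with a median of 1.58, and the interval lay above 1 for 4. In STZ against saline it was above 1 for 6 pairs, with a median of 1.7, again with 4 intervals above 1. In saline against buffer it was above 1 for 3 pairs, with a median of 0.93, and no interval excluded 1. The same 4 pairs made up both counts of STZ intervals above 1, and both share the STZ library.

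Those 4 pairs were Gnat1/Gnat2, Gngt1/Gngt2, Pde6a/Pde6c and Sag/Arr3. There were 0.204 reads of Gngt1 for each read of Gngt2 in buffer, 0.214 in saline and 0.423 in STZ, which is a change by 2.08 (1.9 to 2.27) from buffer and 1.98 (1.81 to 2.17) from saline. The ratio of Gnat1 to Gnat2 reads was 0.0138, 0.0128 and 0.0242, a change of 1.76 (1.44 to 2.15) against buffer. For Pde6a and Pde6c the change against buffer was 1.58 (1.26 to 1.97). For Sag and Arr3 it was 2.62, with an interval of 1.28 to 5.61, Arr3 having only 13 reads in STZ. The other 3 pairs had intervals that included 1. The ratio of Cngb1 to Cngb3 changed by 1.14 (0.952 to 1.36), that of Cnga1 to Cnga3 by 1.06 (0.787 to 1.43), and that of Pde6g to Pde6h by 0.865 (0.63 to 1.18) in STZ against buffer. The beta subunits, a pair added after its values were seen, ran the other way. Gnb1, the beta subunit of rod transducin, which other cells use widely, is outside the list of 43, and its folds were 1.06 and 1.11. The ratio of Gnb1 to Gnb3 reads changed by 0.819 (0.788 to 0.851) from buffer to STZ and by 0.904 (0.87 to 0.939) from saline to STZ. It also changed by 0.906 (0.871 to 0.943) from buffer to saline.

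**Figure D4:**
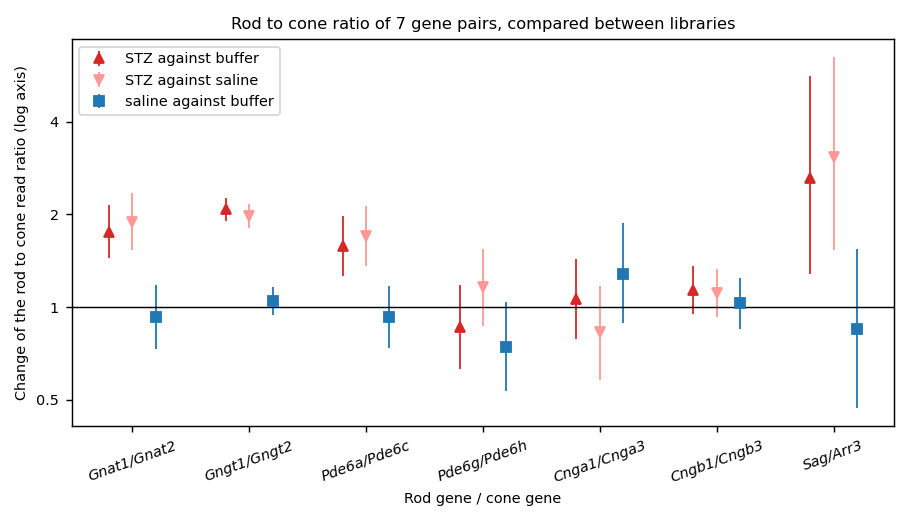
Change between libraries in the ratio of a rod gene's reads to those of its cone counterpart (vertical, log axis) for 7 pairs, with exact conditional 95% counting intervals as bars. Against either control the STZ points lie above 1 with intervals clear of it for Gnat1/Gnat2, Gngt1/Gngt2, Pde6a/Pde6c and Sag/Arr3, and the blue intervals of saline against buffer all include 1.

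Further photoreceptor genes outside the list of 43 had smaller median folds. Of 36 other genes of photoreceptor cilia, discs, channels and transport, 30 had folds above 1 against buffer, where 53.9% of all genes did, and 30 against saline, where 49.9% did, with medians of 0.21 and 0.27 on the log2 scale over the 35 with a mean of at least 10 reads. In each comparison 3 were called higher, where 2.25% and 2.04% of all genes were, and 0 lower. The same 3 genes passed against both controls, among them Nxnl2 and Gucy2e. Nxnl2, a thioredoxin-like survival factor of photoreceptors, had 100, 73 and 262 reads and folds of 2.41 and 3.14. Gucy2e, a photoreceptor guanylate cyclase, had 190, 178 and 348 reads and folds of 1.6 and 1.67. For the 12 photoreceptor transcription factor genes the median log2 fold against buffer was 0.16, and their summed level was 4070, 3940 and 3760 CPM. By FPKM, 7 of the 12 were higher in STZ than in both controls, and 4, Rorb among them, were lower. Of all genes with a mean of at least 10 reads, 44.1% and 35.2% were. Rorb, which progenitors also express, had 29271, 30027 and 22568 of the reads of the 12, and the other 11 summed to 2740, 2570 and 2730 CPM.

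Markers of other cells differed between the same libraries. The 43 genes themselves summed to 5390, 5090 and 6840 CPM. Of all 18425 genes, 7648 had a higher FPKM in STZ than in both controls and 5930 a lower one. The 15 progenitor genes summed to 4220, 4270 and 3200 CPM, and 13 of the 15 were lowest in STZ. Of the other retinal neurons, 10 of 10 ganglion cell genes were highest in STZ. So were 7 of 11 amacrine and horizontal cell genes and 7 of 10 bipolar cell genes, with 3 and 1 lowest. Median log2 folds against buffer were 0.13 for ganglion cells, 0.19 for amacrine and horizontal cells and 0.25 for bipolar cells. The 16 microglia genes summed to 93.1, 112 and 242 CPM, with 16 of 16 highest in STZ, and the 14 lens crystallins to 10.5, 33.1 and 201, with 13 of 14 highest in STZ. The 12 ciliary and iris genes summed to 589, 994 and 580 CPM, with 7333, 7505 and 7912 reads from Mab21l1 alone. The 16 pigment epithelium genes summed to 501, 550 and 407 CPM. Among these Rpe65, its defining enzyme, had 0, 2 and 2 reads, and Rlbp1, which Müller glia and progenitors also express, held most of the reads. The sums hide a difference between the controls. In saline against buffer, 6 ciliary and iris genes and 5 pigment epithelium genes were called higher, where 1.00% of all genes were. In each list 0 were called lower, where 0.429% were. In STZ against saline, 8 and 4 of them were called lower, where 1.75% of all genes were, and 0 higher, where 2.04% were. The 6 genes of pinealocytes and extraocular tissue summed to 20.1, 21.7 and 18.7 CPM. The part of these differences in the higher photoreceptor genes in STZ, or in their lower level in saline, was not tested.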

How the data were processed

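RNA sequencing of P4 retinas gave 3 libraries, 1 each for buffer, saline and STZ. The authors trimmed poor 5′ ends after FastQC, mapped the reads with TopHat2 allowing up to 2 mismatches, discarded reads with several genomic locations and computed values per gene with an R script. The submitters' processing notes name rn6 as the build. The authors deposited FPKM, TPM and an estimated count of reads per gene, made from those mapped reads. TPM entered no result. These counts are fractional for 12.9% to 13.2% of all genes but whole, with a tolerance of 0, for all 43 genes described, and were rounded. The table of the whole series and those of single libraries held the same values.

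Folds were (FPKM + 1)/(FPKM + 1), with a pseudocount of 1 and thresholds of 0.62 and -0.62 on the log2 scale, computed on all 18425 genes. No test was run and no model fitted, since there are no replicates. Read ratios carry exact 95% intervals. All members may be named. Of the further photoreceptor genes those past both controls were to be named, of which 1 is not reported here, and of the marker lists the most abundant gene or those at 0, while Gnb1 and Rorb were added after its values were seen. The members and lists were chosen with earlier results of these data known. Alternatives were another pseudocount, thresholds or minimum count, TMM (edgeR 4.0.16) or median-of-ratios factors (DESeq2 1.42.0, R 4.3.3), CPM in place of FPKM, and counting intervals. Sequences are from RefSeq, GRCr8, and all 43 gene identifiers matched its gene table. Python 3.11.15, numpy 2.4.6, pandas 2.3.3, scipy 1.17.1 and matplotlib 3.10.9 were used. The calculations were tested on simulated data.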

Additional observations from a re-analysis of the deposited data

How the results depend on the processing

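No alternative turned the direction of a called gene. Thresholds of 2 and 0.5 left 3 genes called in STZ against buffer (Fscn2, Gngt1 and Guca1b) and 3 in STZ against saline (Fscn2, Gngt1 and Pdc). With a counting interval that excludes 1 as the rule, chosen after the data were seen, 34 genes of the 40 passed when STZ was compared with buffer, all 34 higher, and 37 when it was compared with saline, 36 higher and Arr3 lower. Of all genes, 26.2% and 26.9% were higher and 18.8% and 23.5% lower by this rule. The rule was applied with library totals only, not with TMM or median-of-ratios factors. Between the controls 22 passed, 20 of them lower in saline. A pseudocount of 0.1 called 1 gene between the controls, Slc24a1, lower in saline, and called Arr3 lower in STZ against either control. It also added higher calls for Guca1a and Rdh8 against buffer and for Cnga3, Guca1a and Slc24a1 against saline. CPM in place of FPKM added Prcd and lost Pde6h against buffer, and added Cnga3 and Slc24a1 against saline. TMM and median-of-ratios scaling each left 10 genes called against buffer, without Pde6b, and 12 against saline, without Opn1sw and Prcd. The median log2 fold lay between 0.42 and 0.48 against buffer, 0.54 and 0.59 against saline, and -0.12 and -0.09 between the controls over 6 alternatives each. No paired analysis was possible because each condition has 1 library, and for the same reason no replicate could be left out. Depth limits Arr3, Slc24a1, Guca1a, Rdh8, Gucy2f and Opn1mw, each with fewer than 40 reads in every library.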
